A study of Mus musculus with 6 samples.

Results

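The genes described here are 10 members of the major histocompatibility complex (MHC) class II pathway, followed in sorted mouse intestinal stem cells: the transcriptional regulators Ciita, Rfx5 and Rfxank, the invariant chain Cd74, the class II chains H2-Aa, H2-Ab1 and H2-Eb1, the peptide editor chains H2-DMa and H2-DMb1, and the protease Ctss. They were chosen by gene symbol as known parts of the pathway, and all 10 were found among the 23127 genes of the deposited table. RNA was sequenced from 6 libraries of Lgr5-GFP high cells, obtained by sorting small-intestinal cells of Lgr5-GFP reporter mice on the C57BL/6 background, in which the Lgr5 gene drives green fluorescent protein. The 3 untreated libraries (5, 1 and 9, by the end numbers of their titles) and the 3 IFNg libraries (6, 2 and 10) shared the sort, the strain and the reporter. IFNg cells were held for 1.5 h with 1 ng/ml interferon gamma (IFNg), and EGF, Noggin and R-spondin1 were the other factors in the medium. Untreated cells are labelled as having no treatment, with the same 1.5 h in their titles. Whether they were also held in medium is not stated, so culture and IFNg cannot be told apart here. The age of the mice, the number of mice behind a library and the part of the small intestine are not given in the labels used here.

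MHC class II molecules are pairs of an alpha and a beta chain that carry peptides from the endosome to the cell surface, where CD4+ T cells read them. The invariant chain CD74 blocks the groove, and cathepsin S trims it to a fragment that stays there. The H2-DM heterodimer then exchanges this remaining fragment for a peptide. The genes are switched together by CIITA, a coactivator that binds no DNA itself but docks on a promoter complex of RFX proteins, CREB and NF-Y, and Lgr5+ intestinal stem cells are among the epithelial cells known to carry class II. In many cell types IFNg acts through IRF1 on the Ciita gene first and on the class II genes only afterwards.

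All levels below are scaled counts, the read counts of a gene divided by a size factor of the library. Recovered reads in genes ran from 28508762 to 40224497 per library, and 1 read was worth 0.853 to 1.05 scaled counts. A gene without a read may still have had up to 3, which equals 2.56 to 3.16 scaled counts. The stem cell markers were present in each library, with Olfm4 at 219689 to 266604 and Lgr5 at 2484 to 8499 scaled counts. Libraries 1 and 2 stood apart by sex-linked genes: Xist, expressed from the inactive X chromosome, was at 8336 in untreated 1 and 6147 in IFNg 2 and at 0 to 16.9 in the other 4. Ddx3y, a Y-linked gene, was at 1.72 and 0.964 in those libraries and at 4219 to 6346 in the others. Neighbouring end numbers (5 with 6, 1 with 2, 9 with 10) also deviated together from their group means across genes, so the members are described over the groups and within these pairs.

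At rest the class II genes were transcribed at very different levels. They are compared here as scaled counts per kilobase of the principal transcript, the longest where several are so marked. The mean over the 3 untreated libraries was highest for Cd74, at 45526 per kilobase, followed by H2-Ab1 at 11122, H2-Aa at 4197 and H2-Eb1 at 2493. The editor chain H2-DMa was at 1170.4, Ctss at 1003 and H2-DMb1 at 742 per kilobase. The regulators were lowest, with Rfxank at 171, Ciita at 88.4 and Rfx5 at 48.9. Untreated libraries overlapped between the neighbours H2-Aa and H2-Eb1, H2-DMa and Ctss, Ctss and H2-DMb1, and Ciita and Rfx5. They did not overlap between Cd74 and H2-Ab1, H2-Ab1 and H2-Aa, H2-Eb1 and H2-DMa, H2-DMb1 and Rfxank, or Rfxank and Ciita. Measured per kilobase of all annotated exons, H2-Eb1 (2140.2) stood above H2-Aa (1247), and Ctss (1001) above H2-DMb1 (620) and H2-DMa (563), so the order within those sets rests on the transcript length used. Together the 10 genes took 0.190% to 0.422% of the gene counts in the untreated libraries and 0.153% to 0.357% after IFNg.

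**Figure D1:**
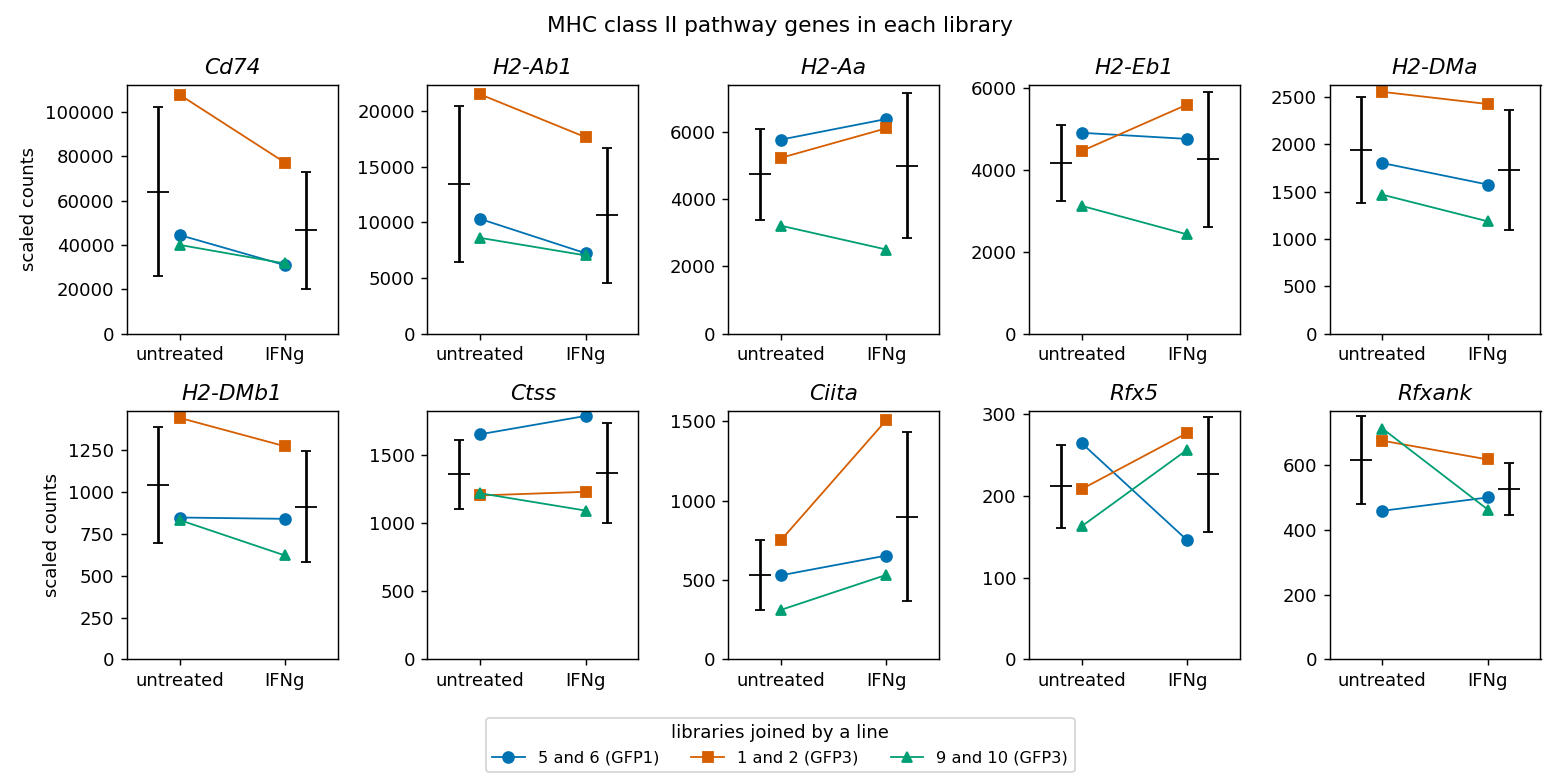
Scaled counts of the 10 class II genes (vertical axes, linear, from 0) in untreated and IFNg libraries; lines join libraries with neighbouring numbers, and the bars beside them are the mean and SD of 3 libraries. Cd74 was highest in untreated 1 (107878) and lower in the IFNg library along each line, while Ciita was higher after IFNg along each line.

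None of the 10 members changed with IFNg by the test across all genes, limma on log2(scaled count + 1) with Benjamini-Hochberg adjustment over 16095 genes. In the same fit 69 genes passed at an adjusted p under 0.05, a background of 0.429%, of which 67 were higher and 2 lower. At an unadjusted p under 0.05 the count was again 0 of 10 members, beside 9.22% of all tested genes, and edgeR and DESeq2 on the recovered reads called 0 members too. In each of the 10 members the untreated and the IFNg values overlapped, while 13.2% of tested genes had groups that did not overlap. The median log2 change of the members was -0.11, with 3 above 0 and 7 below, and that of all tested genes was -0.08. The 95% intervals of all 10 members excluded a 4-fold rise, and those of 9 members excluded a 2-fold rise, the exception being Ciita.

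Cd74, the invariant chain that guides and protects newly made class II, was at 44579.7, 107878 and 40116 scaled counts in untreated 5, 1 and 9 and at 30960.3, 77244 and 31740.4 in IFNg 6, 2 and 10. Libraries 1 and 2 were the highest of their groups, and each IFNg library was below its neighbour, at 0.694, 0.716 and 0.791 of its level. The means were 64191 ± 37899.5 (SD, n = 3) untreated and 46648 ± 26499.6 (SD, n = 3) after IFNg. The log2 change of Cd74 was -0.45 ± 0.476 (SE; 95% interval -1.53 to 0.63) with a limma adjusted p of 0.893. With the neighbouring numbers as pairs the interval narrowed to -0.83 to -0.06, and the limma adjusted p was 0.359. In bulk RNA of sorted cells, fewer cells of a kind and less RNA per cell cannot be told apart.

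H2-Ab1, the beta chain of the I-A molecule, followed nearly the same order of libraries, but was lowest in IFNg 10 and not in IFNg 6. It was at 10316, 21509 and 8616 scaled counts in untreated 5, 1 and 9 and at 7236, 17659 and 7042 in IFNg 6, 2 and 10. The IFNg libraries stood at 0.701, 0.821 and 0.817 of their neighbours, again lower in each pair. The means of H2-Ab1 were 13480.4 ± 7004 untreated and 10646 ± 6075 after IFNg (SD, n = 3 each), with a log2 change of -0.36 ± 0.455 and a limma adjusted p of 0.906.

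The other chain genes did not share that pattern. H2-Aa, the alpha chain that partners H2-Ab1, was at 5768, 5226 and 3210.2 scaled counts in untreated 5, 1 and 9 and at 6379, 6104 and 2503 in IFNg 6, 2 and 10. It was higher after IFNg in pairs 5 and 6 (ratio 1.11) and 1 and 2 (1.17) and lower in 9 and 10 (0.780). Its means were 4735 ± 1348 and 4996 ± 2163 (SD, n = 3 each), and its log2 change was 0.00 ± 0.409 (95% interval -0.92 to 0.93; limma adjusted p = 0.999). H2-Eb1, the beta chain of the I-E molecule, was at 4903, 4457 and 3122 untreated and at 4754, 5590.15 and 2425 after IFNg, in the same order of libraries. Libraries 9 and 10 were the lowest of their groups for both genes. The change of H2-Eb1 was -0.03 ± 0.359 on the log2 scale (limma adjusted p = 0.989), with pair ratios of 0.970, 1.25 and 0.777. The C57BL/6 strain is known to carry a defective I-E alpha gene, so I-E beta protein has no partner there. That gene was among those listed but was not matched in the deposited table, so it has no values here.

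The peptide editor genes were somewhat lower after IFNg in each pair, with groups that overlapped widely. H2-DMa was at 1801, 2553 and 1468 scaled counts in untreated 5, 1 and 9 and at 1574, 2424 and 1186 in IFNg 6, 2 and 10. H2-DMb1, its beta partner, was at 848, 1444 and 833 untreated and at 840.06, 1274 and 621 after IFNg. Both were highest in untreated 1 and lowest in IFNg 10. Each IFNg library was below its neighbour, by ratios of 0.874, 0.950 and 0.808 for H2-DMa and of 0.991, 0.882 and 0.746 for H2-DMb1. The log2 changes were -0.19 ± 0.343 for H2-DMa (limma adjusted p = 0.933) and -0.21 ± 0.358 for H2-DMb1 (limma adjusted p = 0.931). The median log2 change of all tested genes was itself below 0, at -0.08. With Cd74 and H2-Ab1 this made 4 of 10 members lower in each of the 3 pairs, beside 22.4% of all tested genes. Of the exon bases of H2-DMa, 10.4% overlap Brd2 on the other strand, which unstranded reads cannot separate.

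Ctss, the protease that trims the invariant chain, was at 1654, 1204 and 1220.4 scaled counts in untreated 5, 1 and 9 and at 1788, 1231 and 1093 in IFNg 6, 2 and 10. It was highest in libraries 5 and 6, not in 1 and 2, with pair ratios of 1.08, 1.02 and 0.896. Its means of 1359.6 ± 255 untreated and 1371 ± 368 after IFNg (SD, n = 3 each) were nearly equal, with a log2 change of 0.00 ± 0.292 (95% interval -0.67 to 0.66; limma adjusted p = 0.998).

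Ciita, the coactivator that sets class II transcription, was the one member higher after IFNg in each pair, beside 15.1% of all tested genes with that pattern. It was at 529.9, 751 and 312 scaled counts in untreated 5, 1 and 9 and at 654, 1507 and 533 in IFNg 6, 2 and 10. The groups overlapped because untreated 1 was above IFNg 6 and IFNg 10. Within the pairs the IFNg library stood at 1.23, 2.01 and 1.71 times its neighbour. The means were 531 ± 219 untreated and 898 ± 531 after IFNg (SD, n = 3 each). The log2 change of Ciita was 0.69 ± 0.466 (95% interval -0.36 to 1.75, a fold of 0.778 to 3.36), with a limma adjusted p of 0.831. With the neighbouring numbers as pairs the 95% interval was 0.14 to 1.25, a fold of 1.10 to 2.37, and the limma adjusted p was 0.354. In that paired fit Ciita and Cd74 were the 2 of 10 members with an unadjusted p under 0.05 (limma, 0.0216 and 0.0285), beside 13.1% of all tested genes, and in opposite directions. Dexi on the other strand overlaps 3.45% of the exon bases of Ciita.

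Rfx5, the DNA-binding subunit of the RFX complex, was at 264, 208 and 163 scaled counts in untreated 5, 1 and 9 and at 146, 277 and 256 in IFNg 6, 2 and 10. It was lower after IFNg in pair 5 and 6 (ratio 0.552) and higher in pairs 1 and 2 (1.33) and 9 and 10 (1.57). Its log2 change was 0.07 ± 0.372 with a limma adjusted p of 0.978, and the difference of that change between the libraries tagged GFP3 and GFP1 had a limma adjusted p of 0.323. Rfxank, the ankyrin-repeat subunit of the same complex, was at 459, 676 and 714 untreated and at 501, 618 and 463 after IFNg. Untreated 1 and 9 were its highest libraries, and its pair ratios were 1.09, 0.914 and 0.649. The log2 change of Rfxank was -0.21 ± 0.298 (limma adjusted p = 0.919). Both genes overlap a neighbour on the other strand, B230398E01Rik over 26.8% of the exon bases of Rfx5 and Nr2c2ap over 33.8% of those of Rfxank, so their values are uncertain.

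**Figure D2:**
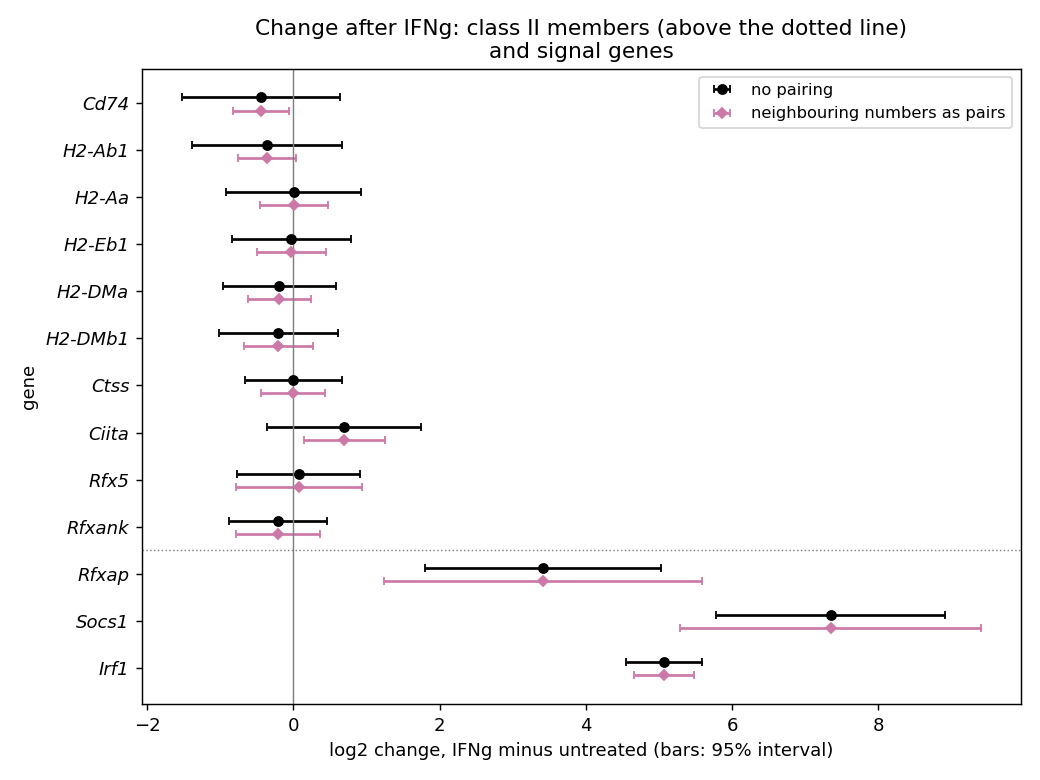
Log2 change after IFNg (horizontal axis) for the 10 members and, below the dotted line, Rfxap and 2 signal genes; points are estimates and bars 95% intervals of limma, without pairing (black) and with neighbouring numbers as pairs (pink). The members lie between -0.45 (Cd74) and 0.69 (Ciita), while Irf1 lies at 5.07 and Socs1 at 7.34.

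Much of the spread of the members lay between the pairs of libraries. The coefficient of variation (SD over mean) over the 3 untreated libraries was 59.0% for Cd74, 52.0% for H2-Ab1 and 41.3% for Ciita, and it was lowest for Ctss at 18.8%. The residual SD of the log2 values of Cd74 was 0.768 within treatment groups and 0.0696 once the pairs were fitted, and for H2-Ab1 it went from 0.727 to 0.0914. Over the 10 members the median residual SD went from 0.499 to 0.185, and over all tested genes from 0.484 to 0.305. Rfx5 was the exception, at 0.432 without and 0.572 with the pairs. For 5 members (Cd74, H2-Ab1, H2-DMa, H2-DMb1 and Ciita) libraries 1 and 2 were the highest of the 6, a pattern held by 8.23% of all tested genes. For 7 members libraries 9 and 10 were both below libraries 1 and 2, as for 15.8% of all tested genes. Libraries 1 and 2 are the ones with Xist and hardly any Ddx3y, so the sex of the mice and the pair cannot be told apart. Without libraries 1 and 2 the log2 change was -0.43 for Cd74, -0.40 for H2-Ab1 and 0.54 for Ciita, and without libraries 9 and 10 it was -0.50, -0.40 and 0.65. In both cases 0 of 10 members passed in limma.

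**Figure D3:**
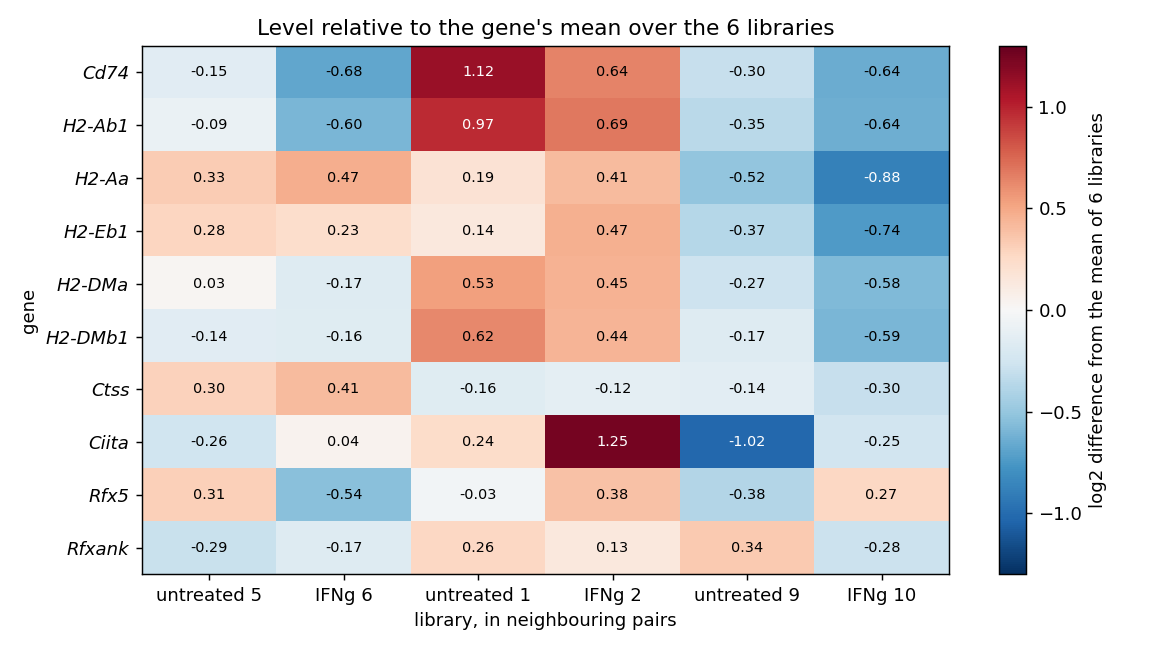
Log2(scaled count + 1) of each member relative to its own mean over the 6 libraries (colour and printed value), with libraries as columns in neighbouring pairs. Cd74 was 1.12 and 0.64 above its mean in untreated 1 and IFNg 2, and H2-Aa reached -0.88 in IFNg 10.

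The members fell into sets that followed each other across the 6 libraries. These libraries fall in neighbouring pairs and differ in depth, so each r describes them only. Pearson's r was 0.995 for Cd74 with H2-Ab1, 0.979 for H2-Aa with H2-Eb1 and 0.976 for H2-DMa with H2-DMb1. It was 0.402 for Cd74 with H2-Aa and 0.467 for H2-Aa with its own partner chain H2-Ab1. The editor genes also followed Cd74 (0.925 for H2-DMa and 0.942 for H2-DMb1) and H2-Ab1 (0.951 and 0.952). With H2-Aa, r was 0.714 for H2-DMa and 0.621 for H2-DMb1. Between Ciita and the chain, Cd74 and editor genes it ran from 0.571 (Cd74) to 0.688 (H2-DMa). For Ctss it was -0.336 with Cd74, 0.681 with H2-Aa and 0.564 with H2-Eb1, and for Rfx5 0.334 with Cd74 and -0.04 with H2-Aa. The ratio of H2-Aa to H2-Ab1 per kilobase of principal transcript was 0.601, 0.261 and 0.400 in untreated 5, 1 and 9 and 0.947, 0.371 and 0.382 in IFNg 6, 2 and 10. It thus spanned a wide range, lowest in untreated 1 and highest in IFNg 6. The ratio of H2-Aa to H2-Eb1, by contrast, kept within 1.52 to 1.99, that of Cd74 to H2-Ab1 within 3.68 to 4.31 and that of H2-DMa to H2-DMb1 within 1.49 to 1.80. Class II genes have close relatives in the genome, and reads with more than 1 alignment were counted apart from genes, so part of the level of a chain gene can be lost and the amount was not tested.

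H2-Aa and H2-Eb1, the chain genes that moved together, are neighbours on chromosome 17 transcribed in opposite directions. The same holds for H2-Aa and H2-Ab1, on its other side, whose r over the 6 libraries was 0.467. Rfx5 belongs to the complex that binds promoters of class II genes. The 110 bases before the starts of H2-Aa, H2-Eb1 and Ctss are shown, where RefSeq and GENCODE give the same start, Ctss being the member with an IRF element match. For Rfx5 the RefSeq start (94954108) lies inside the GENCODE gene, and the 110 bases shown run from 143 to 34 bases before the RefSeq start, ending at the GENCODE start. For H2-DMb1 the RefSeq start (34153191) also lies inside the GENCODE gene, and only the 30 bases around a match, upstream of the RefSeq start, are shown. Sequences are from RefSeq (GRCm38.p6), written 5′ to 3′ on the gene's strand, and capitals mark matched letters. The Y box core, bound by NF-Y, reads CCAAT in 1 direction and, in the reverse direction, ATTGG. A longer form of it reads TGATTGG in 1 direction and, in the reverse direction, CCAATCA. The X1 box core reads AGCAAC in 1 direction and, in the reverse direction, GTTGCT. The core of an IRF element reads GAAANNGAA in 1 direction and, in the reverse direction, TTCNNTTTC.
H2-Aa, chr17:34287824-34287933, minus strand: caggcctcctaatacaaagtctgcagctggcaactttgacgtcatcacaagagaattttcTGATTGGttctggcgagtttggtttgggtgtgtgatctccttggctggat
H2-Eb1, chr17:34305757-34305866, plus strand: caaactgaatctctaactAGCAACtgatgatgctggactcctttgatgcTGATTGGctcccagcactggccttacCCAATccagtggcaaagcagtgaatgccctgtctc
H2-DMb1, chr17:34153117-34153146, plus strand: gattcactcagTGATTGGtctgacctgcct
Rfx5, chr3:94953965-94954074, plus strand: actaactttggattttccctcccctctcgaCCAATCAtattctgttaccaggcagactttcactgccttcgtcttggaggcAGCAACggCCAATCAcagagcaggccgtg
Ctss, chr3:95526676-95526785, plus strand: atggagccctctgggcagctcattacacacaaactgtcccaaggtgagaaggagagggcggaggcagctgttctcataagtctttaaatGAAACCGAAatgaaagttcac

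The promoter table held 8 starts for 7 of the 10 members, and motifs were searched on both strands in the 250 bases before each RefSeq start, from which all distances here are counted. TGATTGG began 50 bases before the start of H2-Aa, 61 before that of H2-Eb1 and 63 before that of H2-DMb1. CCAATCA, the same letters on the other strand, began 113 and 54 bases before the start of Rfx5. The shorter Y box core lies inside each of these matches and was also found 35 bases before the start of H2-Eb1, 198 before the second start of H2-DMa, and 165 and 41 before that of Rfxank. The X1 core was found 92 bases before H2-Eb1 and 62 before Rfx5, and the IRF element core 21 bases before Ctss. TTCNNNGAA, the core of a GAS element, was in none of the 8 windows. Of 32851 windows of this length in the table, 33.9% held the Y box core, 7.23% the longer form, 12.2% the X1 core, 7.13% the IRF core and 7.02% the GAS core. The longer form was chosen after the sequences had been read. A match describes these letters and not binding.

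Class II is most abundant in B cells, dendritic cells and macrophages, so markers of such cells were read in each library. Of 44 listed leukocyte markers (general, B cell, dendritic cell and macrophage, T and NK cell), 35 were in the table and 15 had a mean of at least 10 scaled counts. Their sum was 594 to 1209 scaled counts per library, and Cd74 was at 30960.3 to 107878. Ptprc, the pan-leukocyte CD45, was at 33.7, 20.6 and 26.8 in untreated 5, 1 and 9 and at 11.1, 35.7 and 41.2 in IFNg 6, 2 and 10, and the Cd74 to Ptprc ratio of scaled counts, not corrected for length, was 770 to 5225. Of the other defining markers, Cd79a was at 30.9 to 75.5, Itgax at 0 to 3.51, Csf1r at 0.860 to 36.9 and Cd3e at 0 to 10.6. Only Mrc1 (123 to 623) and Itgam (104 to 172) passed 100 in any library, and 68.7% of the exon bases of Itgam overlap another gene. The leukocyte sum was highest in untreated 9 and IFNg 10 (1099 and 1209), and Cd74 in untreated 1 and IFNg 2. The dendritic cell and macrophage list gave 829 and 920 of those 2 sums. The B cell list differed, lowest in untreated 9 (89.6) and highest in IFNg 6 (167). The part of leukocyte RNA in the class II values was not tested. The epithelial marker Epcam was at 8445 to 73221 scaled counts.

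**Figure D4:**
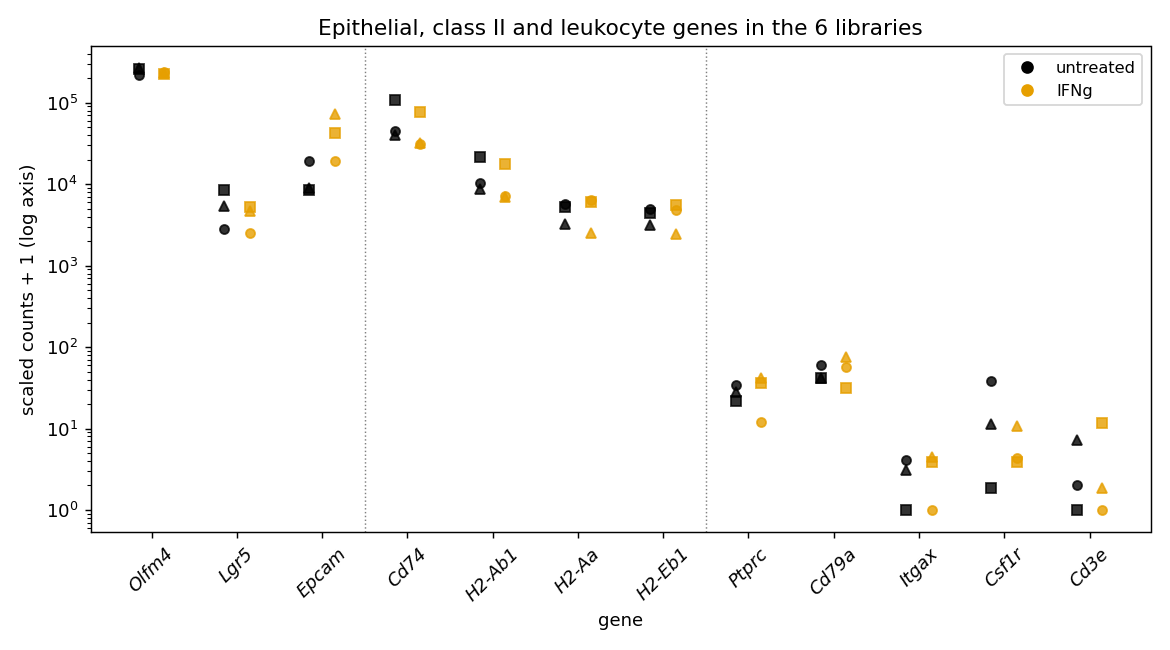
Scaled counts + 1 on a log axis for epithelial genes (left), class II genes (middle) and leukocyte genes (right) in untreated (black) and IFNg (orange) libraries; circles are libraries 5 and 6, squares 1 and 2, triangles 9 and 10. Class II genes lie between 2425 and 107878 and the leukocyte genes shown at 75.5 or below.

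Markers of Paneth cells, the granular neighbours of stem cells in the crypt, also differed between libraries. The summed level of the 10 listed Paneth genes was 118320 to 368968 scaled counts untreated and 34674 to 206400 after IFNg. Lyz1, the Paneth lysozyme, was at 34589.9, 62149.6 and 125048 in untreated 5, 1 and 9 and at 6939.7, 39045 and 75657 in IFNg 6, 2 and 10. It was highest in libraries 9 and 10, where H2-Aa and H2-Eb1 were lowest, and lower after IFNg in each pair. Of the 10 Paneth genes 5 were lower in each pair, beside 22.4% of all tested genes. Reg3g, an antimicrobial lectin, differed from Lyz1: it was at 9039, 2510.4 and 3800.4 untreated and at 9983, 3897 and 2854 after IFNg, highest in libraries 5 and 6. Other differentiated cells varied too. The listed enterocyte genes summed to 22366 (IFNg 10) to 36500 (IFNg 6), the libraries in which H2-Aa and Ctss were also lowest and highest. The goblet, tuft and enteroendocrine genes summed to 32153 to 114789. The part of RNA from Paneth or these other cells in the class II values was not tested.

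Libraries 5 and 6 are tagged GFP1 in their titles and libraries 1, 2, 9 and 10 are tagged GFP3, a label of unstated meaning. By limma in a model with treatment, 0 of 10 members differed between the tags, beside 7.75% of all tested genes. The lowest p among the members was that of Ctss, which was lower under GFP3 by a log2 difference of -0.54 (limma adjusted p = 0.130). The difference was -0.60 for H2-Aa and 0.62 for Cd74. With 1 GFP1 library per treatment the tag and the pair 5 and 6 cannot be told apart.

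Outside the members, 44 further class II pathway genes of 6 lists were in the table and 39 were tested. Irf1 and Socs1 rose and 0 fell by limma, beside 0.429% of all tested genes called in either direction. Irf1, the interferon-induced activator of Ciita promoters, was at 1718, 1726 and 1876 scaled counts in untreated 5, 1 and 9 and at 55019, 66943 and 56965 in IFNg 6, 2 and 10. This is a log2 change of 5.07 ± 0.230 (limma adjusted p = 2.33e-05). Irf1 was thus far higher in each IFNg library than in any untreated one. In the same fit 0 of 10 members passed, beside 0.429% of all tested genes. Socs1, a feedback inhibitor of JAK kinases, rose from 59.0, 10.3 and 12.4 to 1705, 3544 and 6443 scaled counts, a log2 change of 7.34 ± 0.691 (limma adjusted p = 0.00124).

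The promoter complex outside the members counted 8 tested genes, of which 0 passed in limma, beside 0.429% of all tested genes. The groups did not overlap for 4 of the 8, beside 13.2% of all tested genes. Rfxap, the remaining subunit of the RFX complex, was at 186, 64.5 and 25.7 scaled counts in untreated 5, 1 and 9 and at 411, 638 and 1500.3 in IFNg 6, 2 and 10. Each IFNg library was above all untreated ones, and the pair ratios of 2.20, 9.89 and 58.3 differed widely. The log2 change of Rfxap was 3.41 ± 0.715 with a limma adjusted p of 0.144. It passed with DESeq2 (adjusted p = 6.20e-04), without untreated 5 (limma adjusted p = 0.0171) and in the GFP3 libraries alone (limma adjusted p = 0.00303), and not with the pairs (limma adjusted p = 0.354). Nfyb, a subunit of the Y box factor NF-Y, was at 2093, 2516 and 1901 untreated and at 3152, 4302 and 3709 after IFNg (log2 change 0.78 ± 0.255, limma adjusted p = 0.345). The other NF-Y subunits were at -0.33 (Nfya) and 0.33 (Nfyc) on the log2 scale, and Creb1, which binds the X2 box, at -0.28. Among the acetyltransferases that work with CIITA, the log2 change was 0.61 for Kat2b, -0.56 for Crebbp and -0.16 for Ep300, and the groups of Kat2b and Crebbp did not overlap.

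The remaining pathway genes stayed low or did not pass. H2-DMb2, the second DM beta gene, was at 3.16 to 18.5 scaled counts untreated and 6.82 to 20.2 after IFNg. H2-Oa and H2-Ob, which form the inhibitor of H2-DM, were at 0 to 5.26 and 0 to 5.15, near the limit of detection. Of 11 endosomal processing genes and 5 turnover and sorting genes, 0 passed in limma, beside 0.429% of all tested genes. The costimulators Cd80 and Cd86 were at 0 to 3.09 and 0 to 12.4 scaled counts and Cd40 at 9.48 to 50.1. Cd274, the inhibitory ligand PD-L1 on the same list, went from 1.05 to 24.7 untreated to 243 to 659 after IFNg (log2 change 5.44 ± 0.912, limma adjusted p = 0.0507). It passed with the pairs in limma (adjusted p = 0.0170) and with DESeq2 (adjusted p = 2.47e-09).

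The genes most like the class II core were sought by the correlation of their log2 values over the 6 libraries with the mean of Cd74, H2-Aa, H2-Ab1, H2-Eb1, H2-DMa and H2-DMb1. Among 11219 genes whose mean reached 100 scaled counts, the highest were Fem1c (r = 0.982), Sf3a2 (0.978), Gpr160 (0.977), Plscr3 (0.974) and Alkbh4 (0.972). With 6 libraries in 3 pairs such values are a description of these libraries. Fem1c was at 1018, 1275 and 940.3 scaled counts in untreated 5, 1 and 9 and at 1009, 1269.8 and 884 in IFNg 6, 2 and 10, a narrower range than that of any core gene.

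In mm10 with GENCODE vM21, the chain genes lie in the MHC on chromosome 17, H2-Ab1 at 34257689 to 34269419 (plus strand), H2-Aa at 34282744 to 34287823 (minus) and H2-Eb1 at 34305867 to 34316674 (plus). H2-DMa (34119541 to 34139101) and H2-DMb1 (34153072 to 34160230) lie on its plus strand nearby. Cd74 lies on chromosome 18 at 60803848 to 60812652, Ciita on chromosome 16 at 10480059 to 10528418 and Rfxank on chromosome 8 at 70130794 to 70139154. Rfx5 (94954075 to 94961561) and Ctss (95526786 to 95556403) both lie on chromosome 3. All 10 are annotated as protein-coding, and reads were counted over genes as a whole.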

How the data were processed

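Transcripts were measured by RNA sequencing in 6 libraries, 3 untreated and 3 IFNg, grouped by their labels. Per the labels' protocols, 2 ng of RNA went into SMART-Seq v4 with 12 cycles, and 10 ng of cDNA into KAPA Hyper with 8 cycles, without molecular identifiers, so floors cover counting error only. The authors deposited a signal per gene, counts scaled by DESeq size factors per the file name. The submitters' processing notes name STAR 2.5.0a and mm10, with HTSeq 0.5.3, cutadapt 1.6 and DESeq 1.22.1. How strand was handled and which annotation was counted is not given in the sources used here. Its 4 rows for reads outside genes stayed out of tests; reads with more than 1 alignment made up 18.5% to 25.0%, unassigned 9.67% to 14.2%, unaligned 8.83% to 15.4% and ambiguous 0.948% to 1.20% of a library's deposited values.

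Dividing by each library's step gave whole reads, to a tolerance of 0.01, for 100% of values. The main test was limma 3.58.1 (R 4.3.3) on log2(scaled count + 1), two-sided, with a robust prior and a trend, and Benjamini-Hochberg adjustment at 0.05 over the 16095 genes whose mean reached 10 scaled counts; a pseudocount understates changes of low genes. edgeR 4.0.16, which called 62 genes, and DESeq2 1.42.0, which called 465, ran on the recovered reads as alternatives. The limma steps were tested on simulated data. Libraries compared by chi-square differed well beyond sampling noise (62.7 to 505 per degree of freedom), so none was counted together. Separate animals are not stated in the labels. Any p-value here therefore reflects the spread of these libraries only, and that spread may be technical.

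Deviations from group means correlated at 0.302 (5 and 6), 0.404 (1 and 2) and 0.252 (9 and 10); every other pairing was below 0, which deviations that sum to 0 favour. The numbers were therefore used as pairs in a second fit, from the data and not from a stated design. Gene lengths and overlaps came from GENCODE vM21, which may differ from the annotation used by the authors. Members and lists were chosen with earlier results of these data known. Named genes were the members, pathway genes that passed, the detected chaperone and promoter-complex genes, Irf1 and Socs1, 5 genes most like the core, and defining cell markers. Reg3g, Mrc1, Itgam, Cd274, Cd80, Cd86 and Cd40 were named after their values were seen. Some genes chosen by these rules are not reported here. March1 and March8, which the table spells as dates, were matched by identifier.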

Additional observations from a re-analysis of the deposited data

How the results depend on the processing

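Over 20 alternatives and the 10 members, 0 of 200 values passed at an adjusted p under 0.05. The lowest adjusted p was 0.324, from edgeR with the neighbouring numbers as a replicate block. The log2 change turned sign in 28 of the 200, for 8 members, and never for Ciita (0.24 to 0.99) or Rfxank (-0.41 to -0.003). Cd74 ranged from -0.88 to 0.002 and H2-Aa from -0.25 to 0.44. Title tags separated 0 members under each alternative run.

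Counts over other genes depended on the fit. Against 69 genes changed by IFNg in limma, DESeq2 gave 465, the tag as a block 111, GFP3 libraries alone 1348, the fit without libraries 1 and 2 gave 35 and without libraries 9 and 10 gave 33 (both chosen after seeing the data), and the replicate block 75. Leaving out 1 library gave 42 (without IFNg 2) to 369 (without untreated 5), and 44 without IFNg 10. Against 2 other pathway genes, DESeq2 gave 6, GFP3 libraries alone 7, the replicate block 3, and leaving out 1 library 2 to 5, the 5 without untreated 5. Against 1248 genes differing by tag, edgeR gave 755, DESeq2 2880, limma without trend and robust prior 60, and leaving out 1 library 51 to 1364. That count was 51 without untreated 1, 115 without IFNg 2, 147 without IFNg 10, 409 without untreated 5 and 429 without IFNg 6. The cause of these differences was not tested, beyond fewer libraries in some fits.

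The block changed no member's call and added Cd274 among the pathway genes. TMM scaling moved the median of all genes by -0.045 on the log2 scale and left the members' directions within pairs as they were. With 3 libraries a group intervals were wide, and that of Ciita spans a fold of 0.778 to 3.36. Depth limits only genes near the floor of 2.56 to 3.16 scaled counts, such as H2-Oa and H2-Ob.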
